A study of Mus musculus with 7 samples.

Results

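The 10 genes described here encode members of the BCL2 family, which sets the threshold for cell death at the mitochondrion. They were taken by gene symbol, whatever their values, from a deposited table of 48795 mouse genes. Of them 4 encode survival proteins (Bcl2, Mcl1, Bcl2l1 and Bcl2a1b), 4 encode BH3-only proteins that start death (Bcl2l11, Bbc3, Pmaip1 and Bmf), and 2 encode the effectors Bax and Bak1. The other 10 family genes in the table were read beside them. In GRCm38, by GENCODE M21, Bcl2l11 lies at chr2:128126038-128162547 (plus strand), Mcl1 at chr3:95658788-95663176 (plus strand), Bcl2 at chr1:106538178-106714274 (minus strand) and Bcl2a1b at chr9:89199209-89207827 (plus strand).

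Survival proteins such as BCL2 and MCL1 hold the effectors BAX and BAK in check, and BH3-only proteins such as BIM (the product of Bcl2l11) bind the survival proteins and release that check. Freed BAX and BAK open the outer mitochondrial membrane, cytochrome c leaves it, and caspases are activated. In the B lineage, MCL1 is known to be needed by plasma cells, BCL2 to be abundant in resting and memory B cells and low in germinal center (GC) B cells, and BIM to limit the lifespan of B cells.

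RNA was sequenced in bulk from 2 populations sorted from spleens of female wild-type C57BL/6 mice, aged 8 to 12 weeks and immunized through a vein with sheep red blood cells 10 d earlier. All libraries thus came from immunized mice. Memory B cells (MBCs, 3 libraries) were gated as B220+ CD138- IgD- CD38+ CD273+, and plasma cells (PCs, 4 libraries) as B220-low CD138+ IgD-, both after magnetic enrichment of B cells with beads against CD43. The labels do not say whether libraries of 1 group came from separate mice or from pools, so the tests measure only the spread between these libraries, and gating admits MBCs by surface protein, whatever their antigen specificity or origin.

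Values are TPM, the share of a library's transcripts after correction for their length, after division by 1 scaling factor per library ("scaled TPM"), because immunoglobulin transcripts are known to fill much of a PC library. Values are listed in replicate order, first the 3 MBC and then the 4 PC libraries. Fold changes are PC minus MBC on the log2(scaled TPM + 1) scale, from limma. A gene was called at an adjusted p under 0.05 together with a log2 fold change of at least 1 in either direction. The scaling factors were 1.82, 1.48 and 2.05 in the MBC libraries and 0.636 to 0.813 in the PC libraries. At 1 TPM, a transcript of 1 kb stood for an estimated 6.18, 6.98 and 11.6 reads across MBCs and for 9.42 to 16.6 reads in the PC libraries. After scaling, the floor of 3 reads for such a transcript lay at 0.267, 0.290 and 0.126 scaled TPM across MBCs and between 0.252 and 0.392 across PCs, and it covers counting error only.

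The library labelled MBC replicate 3 stood apart from the other MBC libraries. Cd38, a gene of the gate itself, stood at 6.77 scaled TPM there, against 130 and 186 for the other MBC libraries and 9.89 to 21.3 in PCs, and Pdcd1lg2, which encodes CD273, was at 2.59 against 43.3 and 24.4. The summed level of 7 GC B cell markers was 900 there, against 261 and 327 in the other MBC libraries and 253 to 342 in PCs. Most of the 900 came from Mybl1 (336) and Mki67 (269), and Mki67 was also 188 to 238 in PCs. Each of the 7 was higher there than in the other MBC libraries, although Rgs13 (38.5) was close to its level in MBC replicate 2 (32.3). All 6 PC markers were called higher in PCs, and their summed level was 149 to 294 in MBC libraries and 9613 to 16540 in PC libraries. The Pearson correlation of MBC replicate 3 over the genes tested (log2 values, genes not being independent) was 0.687 and 0.681 with the other MBC libraries. Those libraries were no closer to each other (0.675), so by this measure it did not stand apart from them. With the PC libraries it was 0.700 to 0.777, against 0.537 to 0.564 for MBC replicates 1 and 2. MBC replicate 3 also had more genes above 0 (18061, against 12983 and 11527), and the part of depth in these correlations was not tested. It was the only MBC library with the less frequent of the 2 title prefixes, which it shares with PC replicate 4. Results are therefore given with and without MBC replicate 3. The titles also carry codes, 3 of which are shared by an MBC and a PC library (MBC replicates 1, 2 and 3 with PC replicates 1, 3 and 4), and the labels do not say what they mark.

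RNA of other cell types was also measured. The summed level of 7 T cell markers was 14.3, 0 and 24.0 in the MBC libraries and 15.3 to 40.2 in the PC libraries. Cd3e and Trac were called higher in PCs, and Cd3g and Cd8a were listed at 0 in every MBC library. Not all markers followed in PCs, since Cd8a was also listed at 0 in PC replicates 1, 2 and 3 (0.502 in PC replicate 4). Cd3d and Cd3g were listed at 0 in PC replicate 1, where Cd3e was 11.8. Lck, which is on the same list, was 14.3, 0 and 23.0 in MBCs and 0.629 to 5.03 in PCs, and without it the sums were 0, 0 and 1.08 in MBCs and 14.6 to 35.2 in PCs. The summed level of 4 erythroid markers was 2897 in MBC replicate 2 and 0.320 to 72.6 in the other libraries, and that of 5 myeloid markers was 5.73 to 39.6 in all libraries. The part of these cells in any result below was not tested. In bulk RNA, fewer cells of a type and less RNA per cell cannot be told apart.

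The Bcl2a1 genes need their sequences shown first, since they are near-identical copies on chromosome 9 that encode the survival protein A1. The member Bcl2a1b has the expressed neighbors Bcl2a1d and Bcl2a1a, and the first 90 coding bases of each are given here from the GRCm38 genome, 5′ to 3′, with the 6 positions at which the copies differ in capitals.
Bcl2a1b, chr9:89199360-89199449, plus strand: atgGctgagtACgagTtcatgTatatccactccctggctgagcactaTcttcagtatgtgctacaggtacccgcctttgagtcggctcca
Bcl2a1d, chr9:88731630-88731719, minus strand: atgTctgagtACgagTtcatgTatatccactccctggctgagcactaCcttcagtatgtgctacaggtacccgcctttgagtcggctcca
Bcl2a1a, chr9:88957051-88957140, plus strand: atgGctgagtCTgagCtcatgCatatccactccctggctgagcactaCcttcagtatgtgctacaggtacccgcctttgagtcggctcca
Over 516 coding bases Bcl2a1b and Bcl2a1d differed at 6 positions (98.84% identity), Bcl2a1b and Bcl2a1a at 11 (97.87%), and Bcl2a1d and Bcl2a1a at 7 (98.64%). Of the stretches of 50 bases along the Bcl2a1b transcript, 57.55% occur unchanged in another Bcl2a1 copy. Stretches shared with Gm29094, a gene that overlaps Bcl2a1b, were not counted. The corresponding shares were 79.48% for Bcl2a1d and 68.96% for Bcl2a1a. A read from such a stretch could come from more than 1 copy, so the split of reads among the copies is uncertain and their sum is read beside each copy.

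None of the 9 members that passed the filter on low values was called higher or lower in PCs with all libraries. Among all 11573 genes tested, 6.41% were called higher and 2.14% lower, or 8.55% in either direction. Scaling decided part of that split. With the scaling used, 742 genes were higher and 248 lower, but on the deposited TPM 472 were higher and 3018 lower, with immunoglobulin genes removed 393 and 431, and with quantile normalization 629 and 490. Over all genes tested the median log2 fold change was 0.14 with the scaling used, and -0.91, -0.11 and -0.15 under these alternatives, against which the directions below are to be read. At an unadjusted p under 0.05 there were 2 members, Bcl2l11 and Bcl2a1b, against 24.2% of all genes tested. The log2 fold change was positive in 6 of the 9, with a median of 0.17. Bcl2l11 was the only tested member whose groups did not overlap in scaled TPM, which held for 21.7% of all genes tested. On the deposited TPM its groups overlapped. There Mcl1, Bcl2a1b and Bmf were lower in every PC library than in every MBC library. Calls on those values were mostly lower in PCs (3018 against 472 higher), and the share of all genes that separated was not counted. Whether these members separated more often than other genes is therefore not known. Bbc3 was not tested, because it reached 1 TPM in too few libraries. Without MBC replicate 3, 1 member (Bcl2) was called lower and none higher, where 8.2% of the genes tested were called lower and 15.1% higher.

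**Figure D1:**
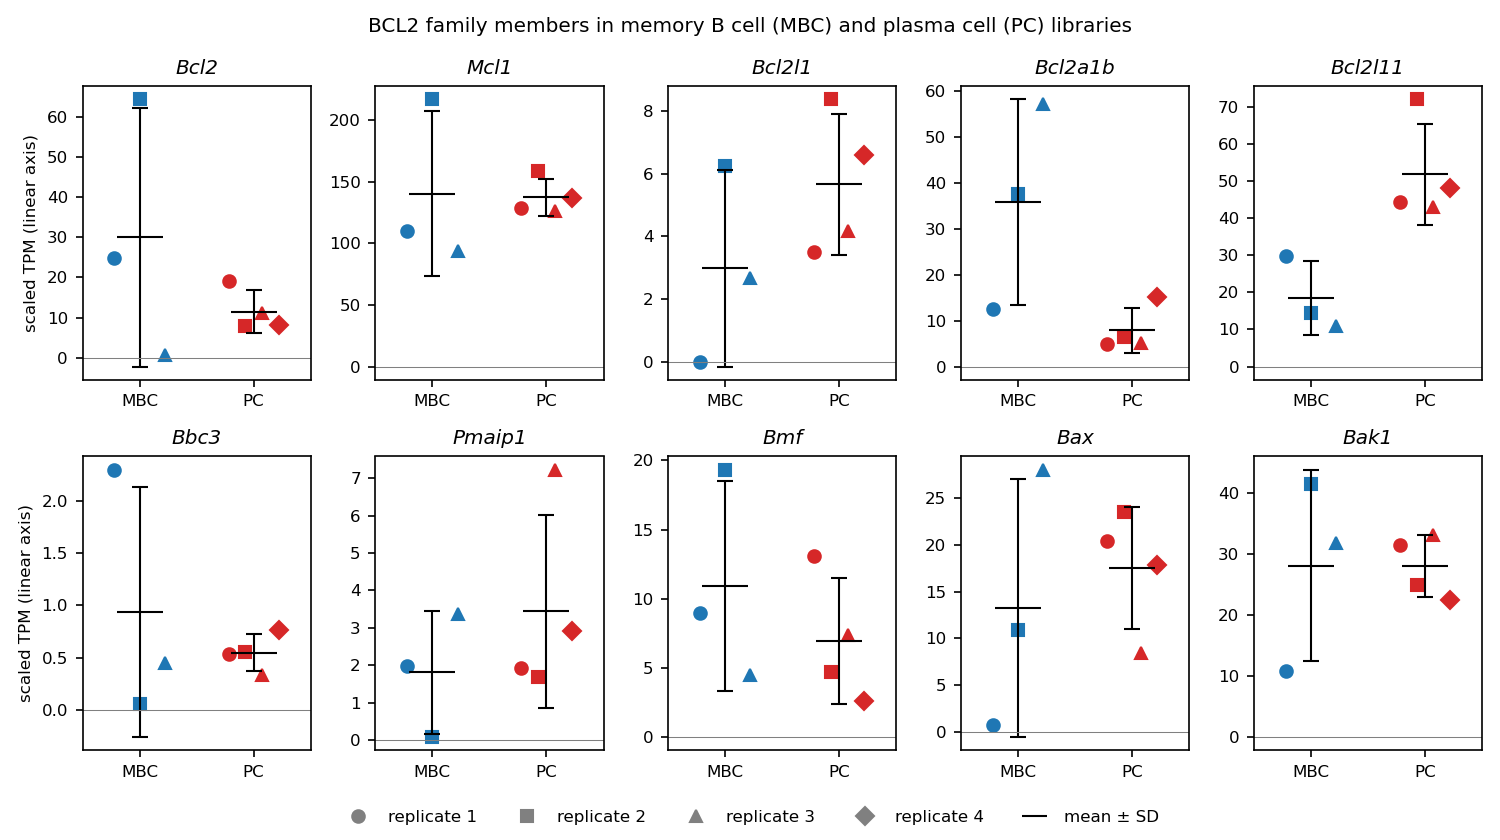
Scaled TPM (linear axes, a separate range for each gene) of the 10 members in 3 MBC and 4 PC libraries; symbols mark replicates, and black bars give the mean ± SD. The PC points of Bcl2l11 all lie above its MBC points, while the points of the other members overlap.

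Mcl1 was the highest of the members in both groups. Its level was 110.2, 216.9 and 94.1 scaled TPM across MBCs and 128.7, 159.0, 125.9 and 136.4 across PCs. The PC values lay within the MBC range, and the group means were 140.4 ± 66.7 (SD over 3 libraries) and 137.5 ± 15.0 (SD over 4). The log2 fold change was 0.06 (SE 0.35, 95% interval -0.73 to 0.85, adjusted p = 0.934), and its sign depended on the scaling, since it was -1.25 (adjusted p = 0.0159) on the deposited TPM and -0.22 with immunoglobulin genes removed. Among the genes tested, Mcl1 stood at the 96.9th percentile of mean level in MBCs and at the 95.2nd in PCs.

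Bcl2, the founding survival gene, had the largest standard error of any tested member. Its level was 24.8, 64.3 and 0.663 scaled TPM across MBCs and 19.1, 7.80, 11.0 and 8.02 across PCs. MBC replicates 1 and 2 were above every PC library, and MBC replicate 3 was below every one, so the groups overlapped. With all libraries the log2 fold change was -0.26 (SE 1.06, 95% interval -2.64 to 2.11, adjusted p = 0.906). Leaving out MBC replicate 3 gave -1.79 (SE 0.53, 95% interval -3.02 to -0.57, adjusted p = 0.045), and Bcl2 was called lower in PCs. The same library held the highest level of Bcl6, a GC B cell repressor, at 104.7 scaled TPM against 26.7 and 15.6 in the other MBC libraries. The part of GC B cells in the Bcl2 value of that library was not tested. D630008O14Rik and Gm37053 overlap Bcl2 and were at most 3.18 scaled TPM in any library.

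Bcl2l1, which encodes BCL-XL, was low in both groups. Its level was listed at 0 in MBC replicate 1 and at 6.24 and 2.67 scaled TPM in the other MBC libraries, against 3.49, 8.37, 4.16 and 6.59 across PCs. The highest MBC value came from the library with the high erythroid markers. Erythroid cells are known to use BCL-XL, and their part in that value was not tested. The groups overlapped, with a log2 fold change of 1.09 (SE 0.71, 95% interval -0.50 to 2.69, adjusted p = 0.383). It was 0.28 without MBC replicate 1, 1.69 without MBC replicate 2 and 0.25 on the deposited TPM.

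Bcl2a1b, an NF-κB target in activated B cells, reached 12.5, 37.6 and 57.3 scaled TPM across MBCs and 5.00, 6.48, 5.08 and 15.3 across PCs. Only PC replicate 4 reached into the MBC range, with group means of 35.8 ± 22.5 (SD over 3 libraries) and 7.96 ± 4.92 (SD over 4). The log2 fold change was -1.93 (SE 0.60, 95% interval -3.29 to -0.58, adjusted p = 0.0844), which missed the threshold. Leaving out MBC replicate 3 gave -1.47 (adjusted p = 0.124).

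Bcl2a1d, whose sequence above differs least from that of Bcl2a1b, was 13.6, 58.5 and 34.2 scaled TPM in the MBC libraries and 6.12, 8.77, 0.935 and 7.51 in the PC libraries. Its groups did not overlap, and the log2 fold change was -2.43 (SE 0.70, adjusted p = 0.064). Without MBC replicate 1 it was -2.97 (adjusted p = 0.0417) and was called. Bcl2a1a was 0.187, 0.708 and 1.55 in the MBC libraries and was listed at 0 in every PC library. Bcl2a1c was listed at 0 in all libraries.

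Summing the 3 expressed copies, a step chosen after the data were seen, gave 26.3, 96.8 and 93.1 scaled TPM across MBCs and 11.1, 15.2, 6.02 and 22.8 across PCs. Every PC library was below every MBC library, although MBC replicate 1 and PC replicate 4 were close. The summed Bcl2a1 level fell in PCs, with a log2 fold change of -2.23 (SE 0.58, 95% interval -3.53 to -0.92, adjusted p = 0.0448). The call was lost when MBC replicate 2 or 3 or any 1 of the PC libraries was left out, with fold changes of -1.91 to -2.51, and without MBC replicate 3 it was -1.93 (adjusted p = 0.0665). Gm29094, which shares stretches with these copies, was 9.21, 0 and 0.633 in the MBC libraries and was listed at 0 in every PC library, and it was not part of the sum.

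Among the other survival genes, Bcl2l2 (BCL-W) was 5.37, 0.115 and 0.789 scaled TPM in the MBC libraries and 1.81 to 2.62 in the PC libraries (log2 fold change 0.42, adjusted p = 0.727). Bcl2l10 was listed at 0 in all libraries.

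Bcl2l11, which encodes the BH3-only protein BIM, a binder of all the main survival proteins, separated the groups most fully of the members in scaled TPM. Its level was 29.7, 14.5 and 11.0 scaled TPM across MBCs and 44.2, 71.9, 42.9 and 47.9 across PCs. Every PC library was above every MBC library, with group means of 18.4 ± 9.94 (SD over 3 libraries) and 51.7 ± 13.6 (SD over 4) at a ratio of 2.81. The log2 fold change was 1.53 (SE 0.42, 95% interval 0.59 to 2.47), yet the adjusted p of 0.0546 missed the threshold. It was 1.23 without MBC replicate 3 (adjusted p = 0.0581). It was called without MBC replicate 1, at 1.89 (adjusted p = 0.0213). On the deposited TPM the groups overlapped, with MBC replicate 1 the highest of all libraries (54.09 TPM), and the fold change was 0.26 (adjusted p = 0.686). With immunoglobulin genes removed the fold change was 1.27 (adjusted p = 0.104).

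The other BH3-only members did not separate the groups in scaled TPM. Bmf, whose product binds dynein light chain, was 9.0, 19.3 and 4.52 scaled TPM in MBCs and 13.1, 4.70, 7.39 and 2.61 in PCs (log2 fold change -0.57, SE 0.64, adjusted p = 0.641). That of Bmf ran from -1.01 to -0.11 when single libraries were left out, these being MBC replicates 3 and 2. Pmaip1, which encodes NOXA, a binder of MCL1, was 1.98, 0.0809 and 3.36 in MBCs and 1.92, 1.69, 7.22 and 2.91 in PCs (log2 fold change 0.73, SE 0.65, adjusted p = 0.537). On the deposited TPM that of Pmaip1 was -0.12. Bbc3, the p53 target PUMA, was 2.30, 0.0607 and 0.448 in MBCs and 0.535, 0.550, 0.332 and 0.767 in PCs. The values of both genes in MBC replicate 2, and that of Bbc3 in PC replicate 3, lay under the floor of 3 reads for a transcript of 1 kb.

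Bid, a BH3-only gene outside the 10, whose product links death receptors to the mitochondrion, had closely grouped values within each population. Its level was 39.6, 35.4 and 32.5 scaled TPM in the MBC libraries and 16.2, 11.0, 15.7 and 15.7 in the PC libraries. The groups did not overlap, and MBC replicate 3 was close to the other MBC libraries. The log2 fold change was -1.25 (SE 0.35, 95% interval -2.04 to -0.46, adjusted p = 0.0601). The same fit without MBC replicate 3 gave -1.31 (adjusted p = 0.0313), and Bid was called lower in PCs. Its fold change was -2.51 on the deposited TPM and -1.55 with immunoglobulin genes removed, and both passed. Bad was 0.115, 3.62 and 11.7 in MBCs and 2.66 to 12.1 in PCs (log2 fold change 0.70, adjusted p = 0.661). Bik was at most 0.237 in any library, and Hrk was listed at 0 in all.

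The effectors overlapped between the groups. Bak1 was 10.8, 41.5 and 31.9 scaled TPM in MBCs and 31.4, 24.9, 33.1 and 22.5 in PCs, and its log2 fold change was 0.17 (SE 0.48, 95% interval -0.91 to 1.24, adjusted p = 0.862). Bax was 0.801, 10.9 and 28.0 in MBCs and 20.4, 23.5, 8.41 and 17.8 in PCs, and its log2 fold change was 1.03 (SE 0.85, 95% interval -0.87 to 2.94, adjusted p = 0.500). That of Bax was 1.87 without MBC replicate 3 (adjusted p = 0.116). On the deposited TPM the fold changes of Bak1 and Bax were -1.11 and -0.10, so neither direction held under every scaling. Ggnbp1, which overlaps Bak1, was at most 4.94 in any library, and Gm45808, which overlaps Bax, at most 0.167. Bok, another effector gene, was listed at 0 in all libraries.

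**Figure D2:**
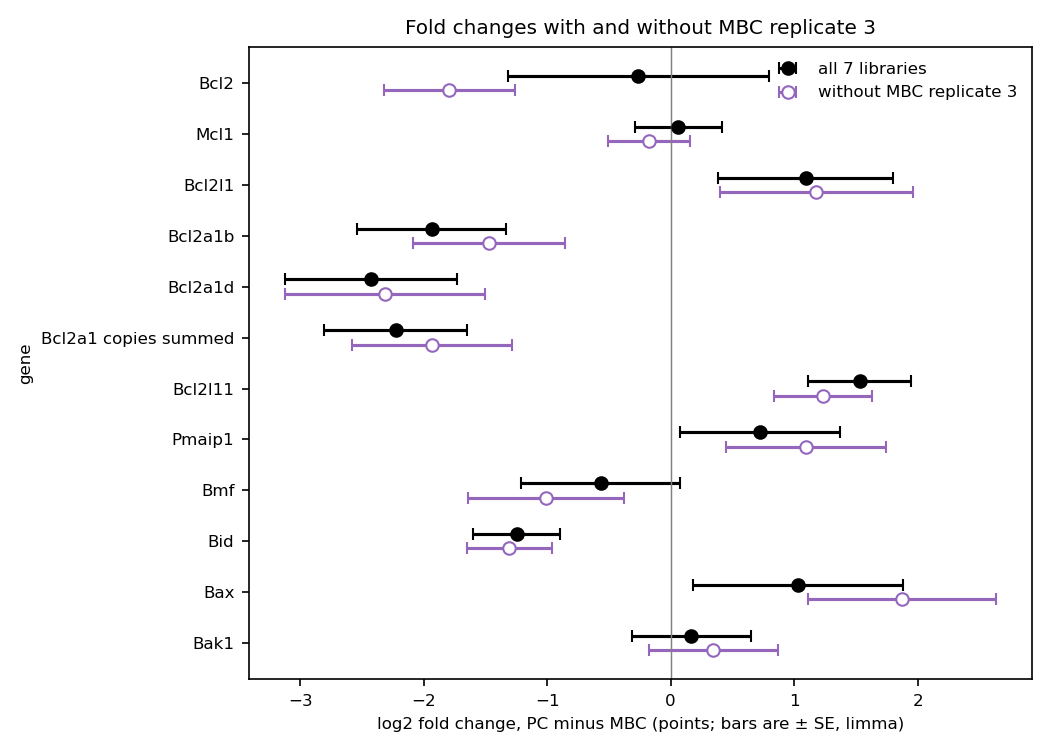
Log2 fold change (PC minus MBC, x axis) of the tested members, of Bcl2a1d, Bid and the summed Bcl2a1 copies, with all 7 libraries (black) and without MBC replicate 3 (purple, open); bars are ± SE. Leaving out that library moved Bcl2 from -0.26 to -1.79, and left Bid at -1.31 and Bcl2l11 at 1.23.

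By mean level within a group, the order in PCs was Mcl1, Bcl2l11, Bak1, Bax, Bcl2, Bcl2a1b, Bmf, Bcl2l1, Pmaip1 and Bbc3. In PCs the ranges of Mcl1, Bcl2l11 and Bak1 did not overlap with each other, those of each pair of neighbors from Bak1 down to Pmaip1 did, and Bbc3 lay below Pmaip1 in every library. In MBCs the order was Mcl1, Bcl2a1b, Bcl2, Bak1, Bcl2l11, Bax, Bmf, Bcl2l1, Pmaip1 and Bbc3, and only Mcl1 lay clear of its neighbor. Without MBC replicate 3 the MBC means ran in the order Mcl1 (163.6), Bcl2 (44.6), Bak1 (26.2), Bcl2a1b (25.0), Bcl2l11 (22.1), Bmf (14.2), Bax (5.84), Bcl2l1 (3.12), Bbc3 and Pmaip1. Bcl2l11 came next to Mcl1 in each PC library, whereas in MBC replicate 1 it was above Bcl2, Bcl2a1b and Bak1 and in MBC replicate 2 below all of them.

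The make-up of the family within a library does not depend on the scaling, and it is given here as a description with no test, computed after the data were seen. Of the summed TPM of 7 survival genes, Mcl1 took 66.1%, 56.4% and 49.2% across MBCs and 78.3%, 82.6%, 84.1% and 77.7% across PCs. The PC shares were all above the MBC shares, with means of 80.7% ± 3.16 (SD, n = 4) and 57.3% ± 8.50 (SD, n = 3). The Bcl2a1 copies together took 15.8%, 25.2% and 48.7% in MBCs and 6.77%, 7.92%, 4.02% and 13.0% in PCs, again with no overlap. Bcl2 took 14.9%, 16.7% and 0.346% in MBCs and 4.05% to 11.6% in PCs, so that in MBC replicate 3 the Bcl2a1 share was highest where the Bcl2 share was lowest.

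Among the 7 BH3-only genes listed above 0, the leading gene was Bid in MBCs and Bcl2l11 in PCs. Bcl2l11 took 35.9%, 19.9% and 17.2% of their summed TPM in MBCs and 55.6%, 73.6%, 56.3% and 58.3% in PCs, means of 24.3% ± 10.1 (SD, n = 3) and 61.0% ± 8.50 (SD, n = 4). Bid took 47.9%, 48.5% and 51.0% in MBCs and 20.4%, 11.2%, 20.6% and 19.0% in PCs, means of 49.1% ± 1.66 (SD, n = 3) and 17.8% ± 4.45 (SD, n = 4). This order held in each library of the group. The summed level of the BH3-only genes was 82.6, 73.0 and 63.7 scaled TPM in MBCs and 76.2 to 97.8 in PCs, so the sums overlapped where the make-up did not. The summed survival level was 166.7, 384.4 and 191.3 in MBCs and 149.7 to 192.6 in PCs.

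**Figure D3:**
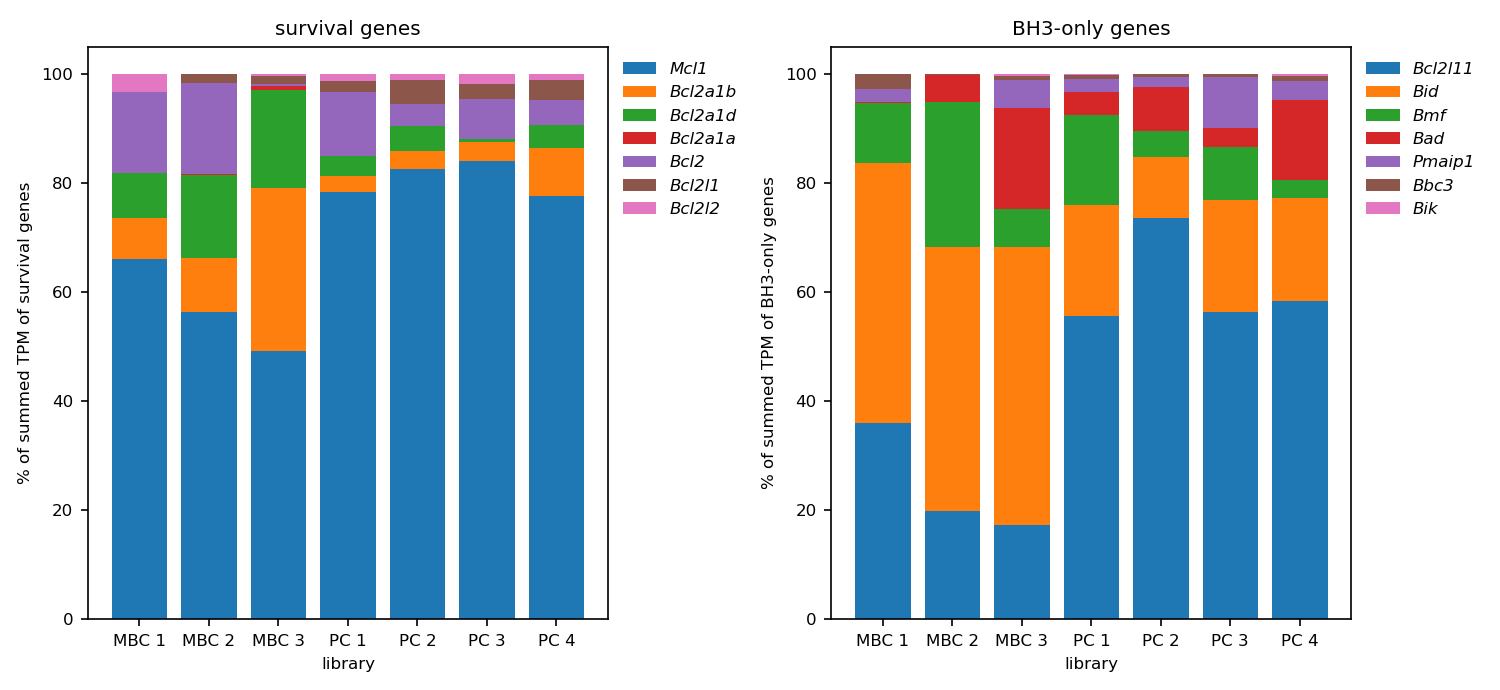
Percent of the summed TPM of the survival genes (left) and of the BH3-only genes (right) taken by each gene, 1 bar for each library. Mcl1 fills 77.7% to 84.1% of the left bars in PCs and 49.2% to 66.1% in MBCs, and on the right Bid is the largest part in MBC bars and Bcl2l11 in PC bars.

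Ratios of 2 members within a library also need no scaling, and 4 were compared, each with an exact two-sided permutation test over 35 assignments of the libraries (smallest possible p = 0.0286), adjusted over the 4. Mcl1 to Bcl2 was 4.45, 3.37 and 142 across MBCs and 6.74, 20.4, 11.4 and 17.0 across PCs. MBC replicate 3 was above all PC libraries and the other MBC libraries were below them, and the mean log2 ratio was 3.69 ± 3.01 for MBCs (SD over 3 libraries) and 3.68 ± 0.71 for PCs (SD over 4) (exact permutation p = 1.0, adjusted p = 1.0). After leaving out MBC replicate 3 the log2 ratio was higher in PCs by 1.72, with an exact permutation p of 0.0667, the smallest that 2 against 4 libraries allow.

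Bcl2 to Bcl2l11, a survival gene set against the BH3-only gene whose product it binds, was 0.835, 4.42 and 0.0605 in MBCs and 0.432, 0.109, 0.257 and 0.167 in PCs. The difference of the mean log2 ratios, PC minus MBC, was -1.52 (exact permutation p = 0.4, adjusted p = 0.61). It was -0.0857 without MBC replicate 2, and -3.18 without MBC replicate 3 (exact permutation p = 0.0667, the smallest possible there). MBC replicates 1 and 2 lay above every PC library, and MBC replicate 3 below every one. Mcl1 to Pmaip1 differed by -1.76 (exact permutation p = 0.457, adjusted p = 0.61), a value that rests on the Pmaip1 level near 0 in MBC replicate 2 and was 0.27 without that library and -3.02 without MBC replicate 3. Bax to Bak1 was 0.0739, 0.262 and 0.878 in MBCs and 0.649, 0.944, 0.254 and 0.793 in PCs, a difference of 1.21 (exact permutation p = 0.314, adjusted p = 0.61). That difference was 0.31 without MBC replicate 1 and 2.09 without MBC replicate 3.

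**Figure D4:**
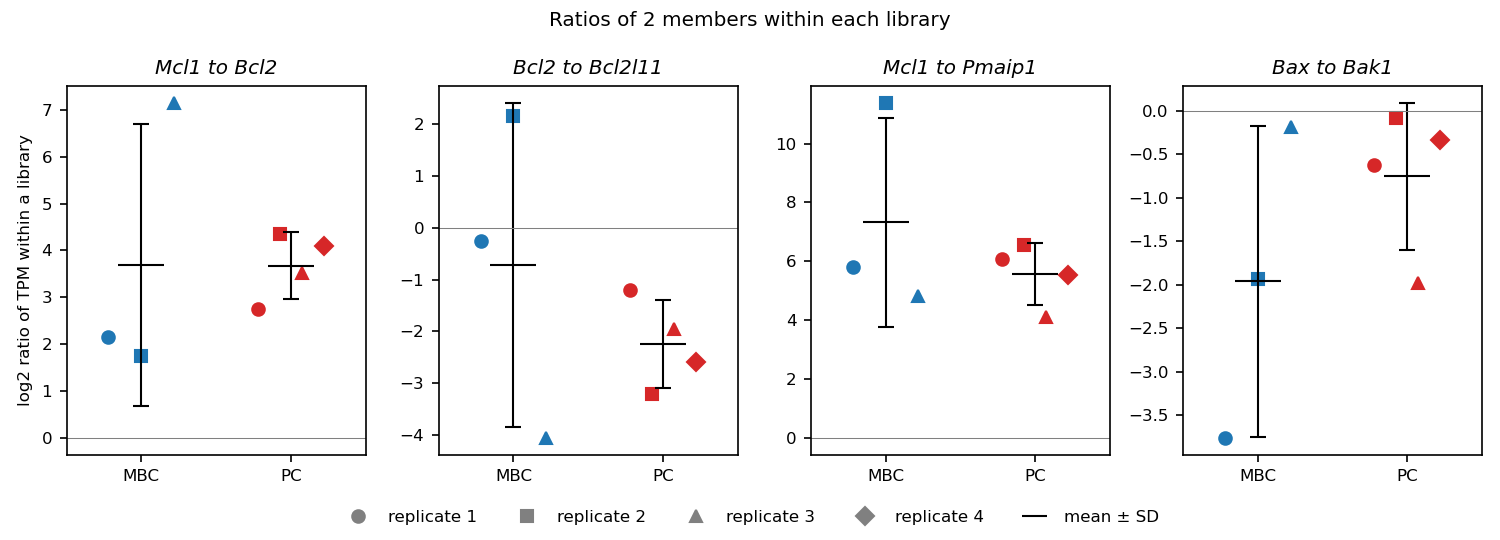
Log2 ratio of 2 members' TPM within each library, for 3 MBC and 4 PC libraries; symbols mark replicates, and black bars give the mean ± SD. The MBC points spread more widely than the PC points, and MBC replicate 3 lies farthest from the other MBC points for Mcl1 to Bcl2.

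The genes around the family were read in 4 lists. Downstream of the mitochondrion, 11 genes of the apoptosome, the caspases and their inhibitors were tested, and none was called with all libraries (3 at an unadjusted p under 0.05, median log2 fold change 0.20). Without MBC replicate 3, Cycs, which encodes cytochrome c, was higher in PCs by 1.82 (adjusted p = 0.0198). In that fit the caspase inhibitor Xiap fell by 1.42 (adjusted p = 0.0358) and its relative Birc3 fell by 1.44 (adjusted p = 0.0142). With all libraries the fold changes were 1.28 for Cycs, -0.998 for Xiap and -1.11 for Birc3. Xiap was 29.2, 34.2 and 12.3 scaled TPM in MBCs and 8.47 to 15.1 in PCs, so that MBC replicate 3 lay among the PC libraries.

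Of 8 death receptor pathway genes 6 were tested, and none was called with all libraries or without MBC replicate 3 (none at an unadjusted p under 0.05 with all libraries). Of 13 partners and turnover genes of BCL2 proteins 12 were tested and none was called (1 at an unadjusted p under 0.05, median 0.50). When MBC replicate 3 was left out, Dynll1, the dynein light chain that binds BIM, rose by 1.90 (adjusted p = 0.0326), and Vdac2, a mitochondrial porin that binds BAK, rose by 1.47 (adjusted p = 0.043). On the deposited TPM with all libraries these were -0.03 and -0.45, so their direction depended on the scaling.

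The 15 transcription factors known to act on BCL2 family genes held the calls made with all libraries, 3 higher and 1 lower in PCs, with 7 of them not overlapping between the groups. Over all genes tested, 6.41% were called higher, 2.14% lower and 21.7% did not overlap. Atf4, a factor of the integrated stress response, was 9.40, 6.67 and 44.4 scaled TPM in MBCs and 115, 103, 72.0 and 98.2 in PCs, and rose by 2.65 (SE 0.58, adjusted p = 0.0201). Its target Ddit3, which encodes CHOP, was 0.461, 0.512 and 5.38 in MBCs and 24.1, 12.6, 16.3 and 6.58 in PCs, and rose by 2.59 (SE 0.68, adjusted p = 0.0469). Atf5 was 1.15, 0.189 and 1.34 in MBCs and 10.2 to 18.6 in PCs, and rose by 2.88 (SE 0.51, adjusted p = 0.00719). MBC replicate 3 was the highest MBC library for each of these. The Atf5 call held without any 1 library (2.53 to 3.03), but not with a block by title code (adjusted p = 0.0541) or by replicate number (adjusted p = 0.073). That of Atf4 was lost without any 1 library except MBC replicate 3 or PC replicate 3 (2.12 to 2.64, adjusted p of 0.0601 to 0.0693) and on the deposited TPM (1.38). Ddit3 was called without MBC replicate 3 (3.19, adjusted p = 0.00769) and was lost without any other 1 library (2.18 to 2.94, adjusted p of 0.0666 to 0.124) and under both blocks (adjusted p of 0.158 and 0.0991).

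Rel, the NF-κB subunit c-Rel that is known to drive Bcl2a1 genes in B cells, was 85.1, 72.3 and 49.5 scaled TPM in MBCs and 11.3, 7.98, 10.4 and 8.74 in PCs. It fell by 2.70 on the log2 scale (SE 0.37, adjusted p = 0.00167), and the fold change ranged from -2.90 to -2.54 when single libraries were left out, called each time. When MBC replicate 3 was left out, Myb was also called, higher in PCs by 2.72 (adjusted p = 0.0107). The FoxO genes are named here after their values were seen. Foxo3 was 8.75, 6.94 and 3.18 in MBCs and 18.6, 15.4, 16.4 and 12.0 in PCs with no overlap (log2 fold change 1.26, adjusted p = 0.135, and 0.07 on the deposited TPM), and Foxo1 was 30.3 to 33.3 in MBCs and 28.5 to 34.0 in PCs (log2 fold change -0.01, adjusted p = 0.985).

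**Figure D5:**
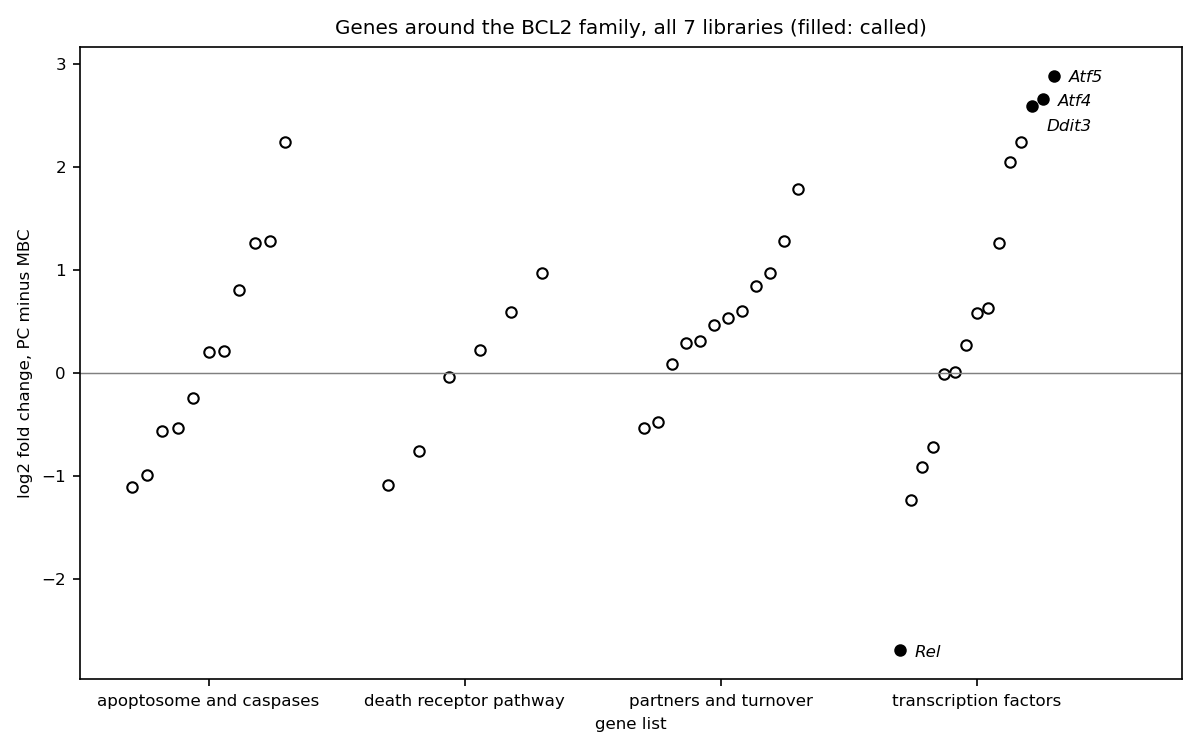
Log2 fold change (PC minus MBC, y axis) of each tested gene in 4 lists around the BCL2 family, with all 7 libraries; filled points are called genes. The filled points are Atf5, Atf4 and Ddit3 above 0 and Rel at -2.70, all of them transcription factors.

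FoxO factors are known to act on Bcl2l11, so the promoter windows were read for their site. RefSeq windows of GRCm38.p6, from 250 bases before to 50 bases after a gene's start, were matched for 9 of the 10 members (16 windows). The letters GTAAACA, searched on both strands, were found in 3.65% of 32851 windows of all genes. Among the members they occurred in 1 window each of Bcl2l11 and Bbc3. The Bcl2l11 match began 227 bases before the start. It is shown here with its surroundings because Bcl2l11 was the tested member whose groups did not overlap in scaled TPM. The match is in capitals.
Bcl2l11, chr2:128125788-128125847, plus strand: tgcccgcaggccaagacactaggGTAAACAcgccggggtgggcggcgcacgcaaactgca
The composite ATF4-CHOP site, TGATGNAA on either strand, was found in 3.969% of windows of all genes, and among the members in that of Bcl2a1b, 40 bases before the start. The windows of Bcl2a1a and Bcl2a1d hold it 4 bases after theirs. The κB consensus was found in 8.459% of windows, and among the members in 1 window each of Bmf, Bcl2l1 and Bbc3. A match is a description of letters, and binding was not measured.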

How the data were processed

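The authors deposited TPM for 48795 Ensembl genes. Per the submitters' processing notes, STAR 2.5.2a, RSEM 1.3.0, DESeq2 1.18.1 and GRCm38 were used, and their roles are not given in the sources used here. Symbols came from GENCODE M21, which matched 48349 genes. Each library's TPM was divided by 1 factor, the median over 9305 genes (those listed above 0 everywhere) of the gene's TPM relative to its geometric mean. A gene entered the tests if 3 or more libraries had it at 1 TPM or higher, and log2(scaled TPM + 1) was used, a scale that understates changes of low genes, with limma 3.58.1 (R 4.3.3, eBayes with a trend, no covariate, Benjamini-Hochberg adjustment). Fits without a library recomputed scaling and filter. Ratios were tested by enumerating every assignment of the libraries to the groups in Python 3.11.15. The procedures were tested on simulated data. TPM holds no read totals, so depth was estimated from low values of single-transcript genes, of which 77.4% to 84.1% were within 0.15 of whole reads (30.0% by coincidence). The members and lists were chosen with earlier results of these data known. All family genes were named whatever their values, and of each further list at most 4 called genes per direction, beside exceptions marked in the text and genes called without MBC replicate 3. A gene of these lists is not reported here. Alternatives were scaling, pseudocount, filter, leaving out each library, the more frequent title prefix, and replicate blocks.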

Additional observations from a re-analysis of the deposited data

Results flagged for a closer look

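Of 30 genes or quantities examined over the 4 PC libraries, 2 had 1 library far from the others, where chance alone gives about 1 in 20. Bcl2a1b was 15.27 scaled TPM in PC replicate 4, against 5.002 to 6.48 in the other PC libraries. Bid was 10.97 scaled TPM in PC replicate 2, against 15.66 to 16.22 in the other PC libraries. The groups of 3 MBC libraries were too small for this rule.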

How the results depend on the processing

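On the deposited TPM 2 members were lower in PCs, Mcl1 (-1.25) and Bcl2a1b (-3.16, adjusted p = 0.0074), and quantile normalization gave 1 higher (Bcl2l11, adjusted p = 0.0472). Summing the Bcl2a1 copies gave 1 lower. Leaving out each library gave 0 to 1 member higher and 0 to 1 lower, among them Bcl2a1b at -2.55 without MBC replicate 1. The count of all genes called, 990, became 3490 on the deposited TPM, 560 with no filter on low values, and 549 to 2505 when each library was left out (2505 without MBC replicate 3, and 549, 631 and 591 without PC replicates 2, 3 and 4). Some fold changes turned sign, and not only those near 0. In the main fit, those of genes that turned were 1.03 for Bax, 0.73 for Pmaip1, 0.70 for Bad, 1.28 for Dynll1 and 0.84 for Vdac2. That of Bcl2 was 0.0161 with a pseudocount of 0.1 and ran from -1.79 to 0.80 without each library (0.12 and 0.80 without MBC replicates 1 and 2). That of Mcl1 was -0.49 under quantile normalization, -0.22 without immunoglobulin genes, -0.17 within the more frequent title prefix and -0.18 to 0.39 without each library. Bak1 was -1.11 on the deposited TPM, -0.11 without immunoglobulin genes and -0.41 to 0.51 without each library, Bax -0.10 on the deposited TPM and -0.11 to 1.87, and Pmaip1 -0.12 on the deposited TPM. Among the other genes named, the deposited TPM gave Bad -0.22, Bcl2l2 -0.36, Dynll1 -0.0344 and Vdac2 -0.45, quantile normalization gave Bcl2l2 -0.20, and leaving out 1 library gave Bad -0.24 to 1.47, Bcl2l2 -0.14 to 1.09 and Foxo1 -0.0557 to 0.0455. Ddit3 missed the threshold under every scaling alternative, a pseudocount of 0.1 and no filter, and Atf4 on the deposited TPM and with no filter. The difference in the log2 ratio of Mcl1 to Bcl2 was 0.0932 with 1 TPM added and -0.97 to 1.72 without each library, and that of Mcl1 to Pmaip1 -3.02 to 0.27. The causes were not tested.

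The correlation of deviations from the group means was 0.109, -0.0398 and -0.0832 for equal replicate numbers and 0.109, -0.00436 and 0.222 for equal title codes. Pairs sharing neither ran from -0.176 to 0.152, so the highest of all pairs was 1 of equal title code, MBC replicate 3 with PC replicate 4. With so few libraries these values cannot show whether the libraries were paired. With a replicate block by number 450 genes were called, and with one by title code 517. Neither block called a member, and the block by title code gave Mcl1 -0.0088 and Foxo1 0.0388. The number block lost the calls of Atf4, Atf5 and Ddit3, and the title code block those of Atf5 and Ddit3. The summed Bcl2a1 copies were -2.50 and -2.32 with these blocks, -2.31 with a pseudocount of 0.1 and -2.21 within the title prefix, and none of these passed.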
